A study of Mus musculus with 40 samples.

Results

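Iron uptake, storage and export were followed through 10 named genes of the mouse melanoma line B16F10: Tfrc, Trf (transferrin, listed as Tf), Steap3, Slc11a2, Fth1, Ftl1, Slc40a1, Cp, Aco1 and Ireb2. Every probe set that the array annotation gives to 1 of these symbols alone was taken. This left 13 of 45141 probe sets, for 8 of the 10 genes and of 17097 named genes in all. Slc11a2 was named by 2 probe sets that also name another gene, and no probe set was named for Ireb2, so neither gene has a value. Tfrc had 3 probe sets, Slc40a1, Cp and Aco1 had 2 each, and the other 4 genes had 1 each. Where 1 value stands for a gene, it is that of its brightest probe set, by mean over the 40 arrays.

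RNA was measured on 40 arrays in 6 groups, with 1 array per sample. B16F10 cells in culture, an established line, were either untreated (4 samples) or treated with OTX015 (4 samples), a drug that keeps BET bromodomain proteins from binding acetylated histones. The other groups were tumours of B16F10 cells placed under the skin of C57black6J mice aged 8 weeks. In the OTX015 experiment 11 tumours were untreated and 10 came from mice given OTX015 by mouth. In the guadecitabine experiment 5 tumours were untreated and 6 came from mice given guadecitabine, a DNA methyltransferase inhibitor, by intraperitoneal injection. The labels name no genetic change in cells or mice, no dose and no length of treatment, and do not say whether controls received a vehicle. Nor do they say whether the replicates of a group came from different cultures or animals, so the p-values measure only the spread between these samples.

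Values are log2 RMA values, so a difference of 1 is a doubling. The 83 probe sets of olfactory and vomeronasal receptors, which melanoma is not known to express, set a background of 4.46, and the mean of 11 of the 13 probe sets lay above it. The mean over all probe sets was 4.35 to 4.39 on the 10 arrays of OTX015 tumours and 4.55 to 4.64 on the other 30 arrays. Differences for OTX015 in tumours were therefore taken after quantile normalization of the arrays compared, and the deposited values are given beside them where they differ. All 9 melanocyte markers listed lay above background in every group, which fits the labelled cell type. Of 12 macrophage markers, 11 lay below background in cultured cells and 1 in the untreated tumours of each experiment, so a tumour value sums melanoma and host cells. Fewer cells of a type and less RNA per cell cannot be told apart in such samples.

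Cells take up iron as transferrin loaded with ferric iron, which binds the transferrin receptor and enters endosomes, where a STEAP reductase frees ferrous iron for transport into the cytosol. Ferritin, built from heavy and light chains, stores what is not used. Ferroportin is the known exporter, and the copper protein ceruloplasmin oxidises the iron that leaves. Iron regulatory proteins bind iron-responsive elements in the mRNAs of the receptor, the ferritin chains and ferroportin, which ties their stability or translation to the iron level.

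The promoter windows of the 4 genes below are shown because these genes' RNA differed between OTX015-treated and untreated cells, with Tfrc, Fth1 and Ftl1 higher and Cp lower. Aco1 RNA was also higher, but its only window held none of the 6 motifs searched and is not shown. Trf RNA was lower, and Trf had no window. The windows shown run from 250 bases before to 50 bases after the RefSeq start in GRCm38.p6, 5′ to 3′ on the gene's strand, with matches to the 6 searched motifs in capitals. Where the table held 2 windows for a gene, the one with more matches was taken, and for Tfrc, whose 2 windows tied at 3 matches, the one listed first. They lie at chr16:32608646-32608945 (plus strand, Tfrc), chr19:9982396-9982695 (plus strand, Fth1), chr7:45459837-45460136 (minus strand, Ftl1) and chr3:19956999-19957298 (plus strand, Cp).
Tfrc: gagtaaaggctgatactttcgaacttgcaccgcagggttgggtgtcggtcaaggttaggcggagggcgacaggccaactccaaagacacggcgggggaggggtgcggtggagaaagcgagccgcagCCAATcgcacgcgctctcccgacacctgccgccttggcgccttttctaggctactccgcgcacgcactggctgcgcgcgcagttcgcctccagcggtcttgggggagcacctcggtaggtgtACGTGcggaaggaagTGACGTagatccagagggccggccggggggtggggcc
Fth1: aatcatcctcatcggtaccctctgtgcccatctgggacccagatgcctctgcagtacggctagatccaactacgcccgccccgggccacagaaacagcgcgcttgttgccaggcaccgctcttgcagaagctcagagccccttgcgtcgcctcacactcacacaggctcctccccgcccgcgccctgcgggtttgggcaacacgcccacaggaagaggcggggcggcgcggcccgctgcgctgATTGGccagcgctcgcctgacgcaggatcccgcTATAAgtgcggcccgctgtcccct
Ftl1: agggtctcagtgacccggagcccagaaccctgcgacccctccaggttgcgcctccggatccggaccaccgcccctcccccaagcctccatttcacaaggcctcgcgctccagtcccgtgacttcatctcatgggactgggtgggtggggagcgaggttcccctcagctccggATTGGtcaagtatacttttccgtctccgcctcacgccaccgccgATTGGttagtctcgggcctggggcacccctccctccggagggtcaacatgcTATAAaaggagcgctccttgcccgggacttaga
Cp: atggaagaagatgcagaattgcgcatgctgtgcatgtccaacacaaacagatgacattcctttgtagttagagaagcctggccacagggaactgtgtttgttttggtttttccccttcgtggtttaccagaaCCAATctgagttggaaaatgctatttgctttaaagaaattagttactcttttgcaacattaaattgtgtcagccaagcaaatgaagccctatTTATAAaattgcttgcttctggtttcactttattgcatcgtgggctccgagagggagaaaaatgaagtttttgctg

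The motifs, each searched on both strands, were TATAA for the TATA box, the CCAAT box, CACGTG for the E-box, ACGTG for its shorter form (found in every E-box match too), TGACGT for the CRE type and TGACNNNGC for the antioxidant response type. Tfrc held CCAAT at -124, ACGTG at -2 and TGACGT at 14, counted from the start with no base 0. Fth1 held TATAA at 27 and CCAAT on the opposite strand at -7. Ftl1 held TATAA at 18 and CCAAT on the opposite strand at -78 and -34. Cp held CCAAT at -118 and TATAA at -25, overlapped by TATAA on the opposite strand at -26. Among 32851 windows of the same length, 37.4% held CCAAT, 24.9% TATAA, 19.6% ACGTG, 7.51% TGACGT, 12.4% TGACNNNGC and 7.15% CACGTG. All 4 windows shown held CCAAT. The second windows of Tfrc (chr16:32608872-32609171) and Fth1 (chr19:9980350-9980649) held TATAA and no CCAAT, and the window of Aco1 held none of the motifs. The shared motif therefore depends on the windows taken. A match describes these letters and is no evidence that a factor binds. Of the 10 genes, 7 had a window in the table, and Trf, Slc11a2 and Slc40a1 had none.

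OTX015 moved most of these genes in cultured cells and few of them in tumours, and guadecitabine moved none past the threshold. A probe set was called at a limma p of less than 0.05 after adjustment over all 45141 probe sets. In cells 9 of 13 probe sets were called, 6 higher and 3 lower, against 29.1% of all probe sets (13.7% higher and 15.3% lower). The 6 higher included all 3 probe sets of Tfrc. Most probe sets on the array are dim, and the share is larger among bright ones. Without probe sets below background 7 of 10 were called, 5 higher and 2 lower. Of all probe sets then left, 10647 of 18096 were called, 4946 higher and 5701 lower, so the 7 of 10 was near that share. The median difference was 0.14 over the 13 and 0.01 over all probe sets. Melanocyte markers changed there too, 2 of 9 higher and 4 lower, and their mean level was 10.85 to 10.96 in untreated and 10.34 to 10.37 in treated cells. In tumours OTX015 left 3 called, 1 higher and 2 lower, against 16.7% of all (8.6% higher and 8.07% lower), so this count was close to the background. The median difference there was -0.12 over the 13 and 0.00 over all. Guadecitabine left 0 called of 13 and 0 of all 45141 (0%), with a lowest adjusted p of 0.120 anywhere on the array. At an unadjusted p under 0.05, guadecitabine gave 1 of the 13, against 1574 higher and 1505 lower of all probe sets.

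**Figure D1:**
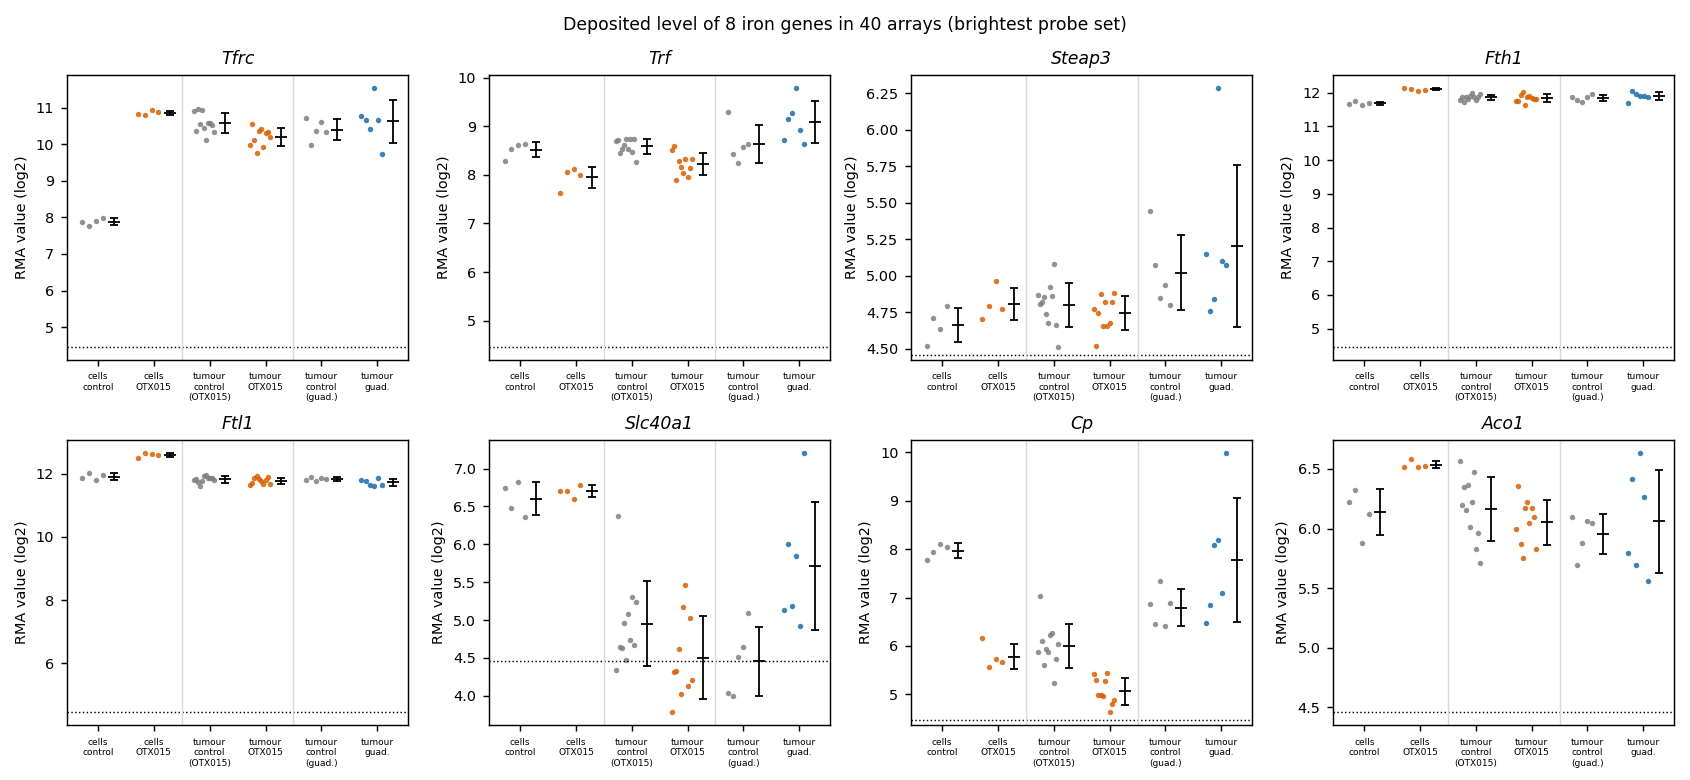
Deposited RMA value (log2) of the brightest probe set of 8 iron genes, 1 point per array, in the 6 groups; the black bars give mean ± SD and the dotted line the background of 4.46. In cells, Tfrc, Fth1, Ftl1 and Aco1 lie higher with OTX015 and Cp and Trf lower, with no overlap. Over all named genes 37.2% were called in that comparison, and how many did not overlap was not counted. The orange tumour arrays lie lower in these deposited values as a whole.

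**Figure D2:**
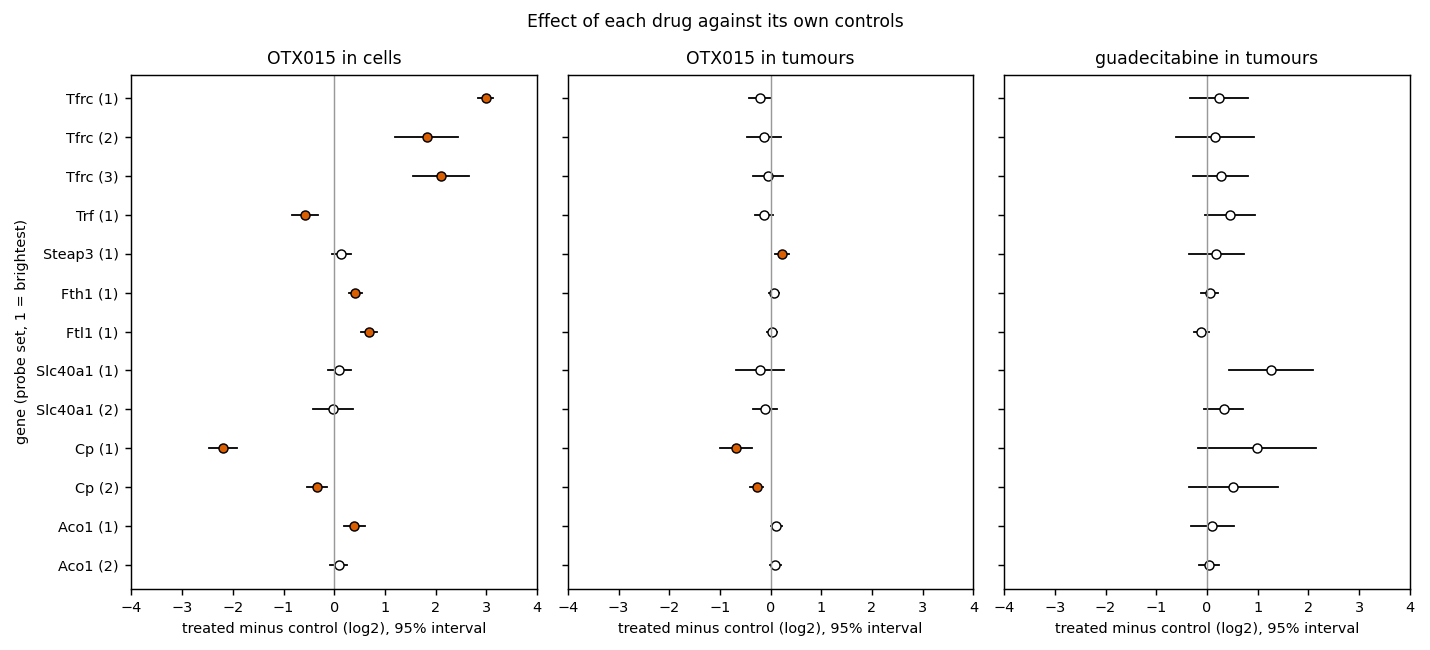
Difference between treated and untreated samples (log2) with its 95% interval for all 13 probe sets in the 3 drug comparisons; filled points passed an adjusted p of 0.05. The 3 Tfrc probe sets lie between 1.82 and 2.98 in cells and near 0 in tumours, and the brightest Cp probe set lies below 0 under OTX015 in both. The Steap3 point in OTX015 tumours turns to -0.06 on the deposited values.

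Among uptake genes, Tfrc gave the largest difference of the 8 genes under OTX015 in cells. Tfrc encodes the transferrin receptor, through which cells take in iron-loaded transferrin. It read 7.89, 7.76, 7.90 and 7.98 in the 4 untreated cell samples and 10.83, 10.81, 10.94 and 10.88 in the 4 OTX015 samples. The groups lay far apart, with all 4 treated samples above every control. The difference was 2.98 ± 0.07 (SE, log2), or 7.91-fold, with an adjusted p of 9.4e-10. The other 2 probe sets of Tfrc rose by 1.82 ± 0.28 and 2.10 ± 0.25 (adjusted p = 4.5e-04 and 7.7e-05). Their untreated means, 4.39 and 3.34, lay below background.

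In tumours Tfrc was already high without treatment. After quantile normalization it ranged from 9.95 to 10.89 with a median of 10.46 in the 11 untreated tumours of the OTX015 experiment. In the 10 OTX015 tumours it ranged from 10.01 to 10.58 with a median of 10.35. The groups overlapped, and the difference of -0.21 ± 0.10 did not pass (adjusted p = 0.180). On the deposited values it was -0.38 and was called (adjusted p = 0.0052), as were 26835 of all probe sets, 26259 of them lower, with a median shift of -0.21 over all. With the 5 untreated and 6 treated tumours of the guadecitabine experiment, Tfrc read 10.73, 9.97, 10.36, 10.60 and 10.34 against 10.78, 10.67, 10.41, 11.55, 10.66 and 9.73. The treated tumours held both the highest and the lowest value, in replicates 4 and 6, and the difference was 0.23 ± 0.26 (adjusted p = 0.856).

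By group mean of the deposited values Tfrc was lowest in untreated cells (7.88 ± 0.09, SD, n = 4). Then came OTX015 tumours (10.20 ± 0.25, n = 10), the untreated tumours of the guadecitabine (10.40 ± 0.29, n = 5) and OTX015 experiments (10.58 ± 0.27, n = 11), guadecitabine tumours (10.63 ± 0.59, n = 6) and OTX015 cells (10.87 ± 0.06, n = 4). From OTX015 tumours upward, neighbours in this order lay closer than the larger of their SDs. Untreated tumours of the OTX015 experiment exceeded untreated cells by 2.70 ± 0.13 (adjusted p = 3.2e-10), and those of the guadecitabine experiment by 2.52 ± 0.14 (adjusted p = 1.4e-06). These comparisons share the untreated cells. Markers of host cells differed too, to an extent that varied by cell type. Over all named genes 20.2% were higher and 28.9% lower in the first comparison, and 9.87% and 28.2% in the second. Of 12 macrophage markers 12 and 11 were higher in this order. Of 7 erythroid markers 4 and 2 were higher, with 1 lower in the second. Of 5 neutrophil markers 5 and 2 were higher in the same order, and of 8 T and NK cell markers 6 and 3, with 7 of these 8 below background in every group. Of 8 fibroblast markers 3 were higher in each, and 2 and 1 lower. Of 8 endothelial markers 2 and 1 were higher, and of 4 keratinocyte markers 2 and 1. Of 5 muscle markers 3 were higher and 1 lower in the first, and 0 higher and 1 lower in the second. No B cell or adipocyte marker was called in either. The mean level of the 7 erythroid markers was 4.12 to 4.16 in untreated cells, 5.59 to 6.70 in untreated tumours of the OTX015 experiment and 5.05 to 5.94 in those of the guadecitabine experiment, with Klf1, Epb42 and Gata1 below background in all of these groups. That of the 12 macrophage markers was 3.67 to 3.82, 5.76 to 7.17 and 5.57 to 6.05 in the same order. Their part in these differences was not tested. The effect of OTX015 on Tfrc was itself lower in tumours than in cells, by -3.43 ± 0.17 (adjusted p = 3.5e-15). That contrast was fitted after quantile normalization of its own 29 arrays, so it is not the exact difference of the values above.

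Trf, which encodes transferrin, the iron carrier of plasma, fell with OTX015 in cells. It read 8.30, 8.54, 8.62 and 8.64 untreated and 7.63, 8.05, 8.13 and 7.99 treated. All 4 treated samples lay below every control, by -0.57 ± 0.12 (1.48-fold, adjusted p = 0.0030). In tumours after quantile normalization Trf ranged from 8.21 to 8.66 (median 8.50) untreated and from 8.01 to 8.66 (median 8.31) with OTX015. These ranges overlapped and the difference was -0.13 ± 0.08 (adjusted p = 0.339), while on the deposited values it was -0.36 and called (adjusted p = 8.8e-04). The effect of OTX015 on Trf differed between tumours and cells by 0.47 ± 0.16 (adjusted p = 0.0258). This call was lost without untreated cell replicate 3 (0.0589) or 4 (0.0687) or OTX015 cell replicate 1 (0.0977), on the deposited values (0.281), with median centring (0.0505) and with all 6 groups in 1 fit (0.102). In the guadecitabine experiment Trf read 9.29, 8.43, 8.25, 8.58 and 8.64 untreated and 8.73, 9.16, 9.27, 9.80, 8.93 and 8.64 treated. All 6 treated tumours lay above the untreated mean, but the groups overlapped and 0.45 ± 0.23 did not pass (adjusted p = 0.731). On the deposited values its lowest group mean was 7.95 ± 0.22 (SD, n = 4), in OTX015 cells. Next came OTX015 tumours (8.22 ± 0.23, n = 10), and guadecitabine tumours were highest (9.09 ± 0.42, n = 6). Between OTX015 and guadecitabine tumours lay untreated cells (8.52 ± 0.16, n = 4) and the untreated tumours. The latter had means of 8.59 ± 0.15 (OTX015 experiment, n = 11) and 8.64 ± 0.40 (guadecitabine experiment, n = 5). These untreated means lay closer to each other than their SDs. The OTX015 tumour arrays lie lower as a whole in the deposited values. After quantile normalization their Trf mean was 8.35, against 8.47 in the untreated tumours of that experiment.

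Steap3, the ferrireductase of the transferrin cycle, was dim, with group means from 4.66 to 5.20 against a background of 4.46. It read 4.52, 4.71, 4.64 and 4.79 in untreated and 4.70, 4.79, 4.96 and 4.77 in OTX015 cells, which overlapped (0.14 ± 0.08, adjusted p = 0.243). In tumours after quantile normalization it ranged from 4.32 to 5.03 (median 4.70) untreated and from 4.64 to 5.08 (median 4.92) with OTX015. The treated tumours lay higher by 0.22 ± 0.07 (adjusted p = 0.0293), with 9 of 10 above the untreated mean and the groups overlapping. On the deposited values the sign turned, to -0.06 (adjusted p = 0.404). The call was also lost without untreated replicate 10 or OTX015 replicate 4 (0.0504 each), without OTX015 replicate 10 (0.0547) and when probe sets below background were left out (0.0629) or all 6 groups were fitted together (0.149). In the guadecitabine experiment Steap3 read 5.44, 5.08, 4.85, 4.94 and 4.80 untreated and 5.15, 4.76, 4.84, 6.29, 5.10 and 5.08 treated. Replicate 4 stood above all the others, the groups overlapped, and the difference was 0.18 ± 0.25 (adjusted p = 0.878). The 6 deposited group means ran from untreated cells (4.66 ± 0.12, SD, n = 4) to guadecitabine tumours (5.20 ± 0.55, n = 6). No neighbours in this order differed beyond the larger SD.

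Both ferritin chains rose with OTX015 in cells and differed little between the tumour groups. Ftl1, the ferritin light chain, read 11.85, 12.02, 11.79 and 11.96 in untreated and 12.49, 12.65, 12.62 and 12.60 in OTX015 cells. All 4 treated samples lay above every control, by 0.69 ± 0.07 (1.61-fold, adjusted p = 2.5e-05). Fth1, the heavy chain, whose ferroxidase site loads the shell with iron, read 11.65, 11.76, 11.65 and 11.69 untreated and 12.15, 12.11, 12.06 and 12.09 treated. Again no values overlapped, and the rise was 0.42 ± 0.06 (1.34-fold, adjusted p = 2.3e-04).

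In tumours after quantile normalization Fth1 ranged from 11.65 to 11.97 (median 11.82) untreated and from 11.73 to 12.11 (median 11.86) with OTX015. Ftl1 ranged from 11.56 to 11.92 (median 11.80) untreated and from 11.66 to 12.00 (median 11.81) treated. Neither separated the groups, with differences of 0.06 ± 0.05 for Fth1 (adjusted p = 0.447) and 0.03 ± 0.05 for Ftl1 (adjusted p = 0.706). The sign of both depends on the scaling: the deposited values gave -0.03 for Fth1 and -0.05 for Ftl1, neither called. Centring each array on its median gave rises of 0.22 for Fth1 (adjusted p = 5.8e-04) and 0.20 for Ftl1 (adjusted p = 0.0056), both called. The effect of OTX015 was lower in tumours than in cells for Ftl1 by -0.68 ± 0.09 (adjusted p = 1.2e-06) and for Fth1 by -0.36 ± 0.08 (adjusted p = 0.0012).

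Under guadecitabine Fth1 read 11.86, 11.79, 11.71, 11.87 and 11.97 untreated and 11.69, 12.06, 11.97, 11.89, 11.89 and 11.87 treated (0.05 ± 0.08, adjusted p = 0.888). Ftl1 read 11.80, 11.89, 11.76, 11.87 and 11.84 untreated and 11.79, 11.78, 11.65, 11.60, 11.86 and 11.64 treated (-0.11 ± 0.07, adjusted p = 0.745). The groups overlapped for both genes. By group mean of the deposited values Ftl1 was highest in OTX015 cells (12.59 ± 0.07, SD, n = 4). The other 5 groups, from 11.72 ± 0.10 (n = 6) in guadecitabine tumours to 11.90 ± 0.10 (n = 4) in untreated cells, were within their SDs of each neighbour. Fth1 was lowest in untreated cells (11.69 ± 0.05, n = 4) and highest in OTX015 cells (12.10 ± 0.04, n = 4). Its 4 deposited tumour means, from 11.83 ± 0.12 (n = 10) with OTX015 to 11.89 ± 0.12 (n = 6) with guadecitabine, were within their SDs of each neighbour. After quantile normalization the Fth1 mean was 11.88 in OTX015 tumours and 11.82 in the untreated tumours of that experiment.

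**Figure D3:**
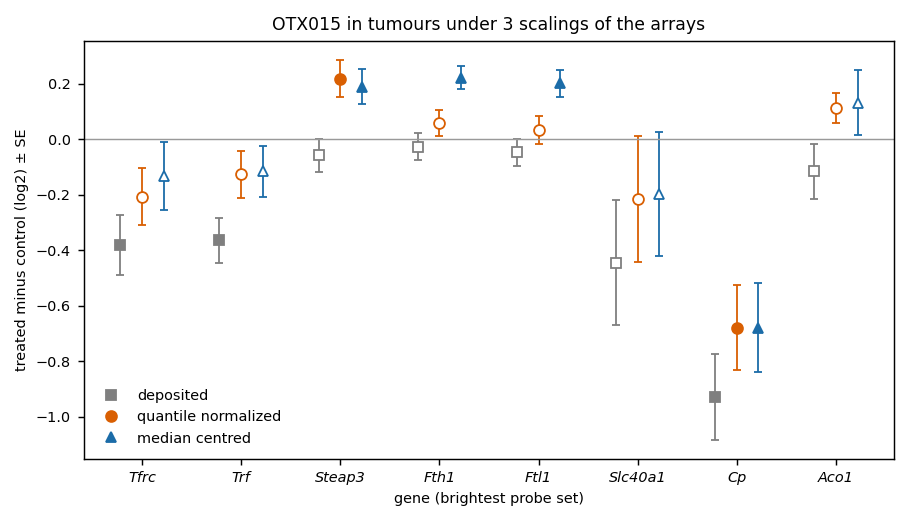
Difference between OTX015-treated and untreated tumours (log2 ± SE) for the brightest probe set of each gene under 3 scalings of the 21 arrays; filled symbols passed an adjusted p of 0.05. Cp lies below 0 under each, while Steap3, Fth1, Ftl1 and Aco1 lie below 0 only on the deposited values; Fth1 and Ftl1 pass only with median centring, and Tfrc and Trf only as deposited.

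Of the export genes, Cp changed with OTX015 and Slc40a1 did not pass the test in cells or in tumours. Cp encodes ceruloplasmin, a ferroxidase that works with ferroportin. It read 7.77, 7.95, 8.11 and 8.05 in untreated and 6.15, 5.56, 5.72 and 5.67 in OTX015 cells. All 4 treated samples lay below every control, by -2.19 ± 0.13 (4.56-fold, adjusted p = 3.9e-07). The second, dim Cp probe set fell by 0.34 on the log2 scale (adjusted p = 0.0144), from a mean of 3.30 that was already below background.

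In tumours after quantile normalization Cp ranged from 5.21 to 6.93 (median 5.78) untreated and from 4.78 to 5.63 (median 5.18) with OTX015. All 10 treated tumours lay below the untreated mean and 5 of them below every control, with some overlap. The difference was -0.68 ± 0.15 (1.60-fold, adjusted p = 0.0035), and the dim probe set gave -0.28 ± 0.06 (adjusted p = 0.0041). It was -0.93 on the deposited values and called, and -0.70 but not called with all 6 groups in 1 fit (adjusted p = 0.0628). The measured fall in tumours was smaller than that in cells: the difference between the effects was 1.39 ± 0.28 (adjusted p = 3.0e-04). The untreated tumour mean of 5.88 left less room above the background of 4.46 than the 7.97 of untreated cells. A fall as large as in cells could therefore not be read in full, and the size of this difference is uncertain. The dim probe set gave 0.07 ± 0.12 for the same contrast (adjusted p = 0.732, not called). Markers of cell types also changed with OTX015, against 8.93% of all named genes higher and 7.83% lower. Of 12 macrophage markers 8 were lower and 0 higher, with a median difference of -1.08. The mean level of these 12 after quantile normalization was 5.53 to 7.30 in untreated and 4.47 to 6.13 in treated tumours. Mertk, Fcgr1 and Vsig4 lay below background in treated tumours. Of 8 T and NK cell markers 2 were lower, and 2 of 7 erythroid and 2 of 5 muscle markers were higher. Of fibroblast (8), keratinocyte (4) and melanocyte (9) markers 1 each was higher, and the other lists had no call. The part of these cell types in the result was not tested.

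Slc40a1 encodes ferroportin. It read 6.75, 6.48, 6.83 and 6.36 in untreated and 6.71, 6.70, 6.60 and 6.79 in OTX015 cells, which overlapped fully (0.10 ± 0.10, adjusted p = 0.580). The 95% interval of -0.13 to 0.33 bounds this difference. In the OTX015 experiment after quantile normalization it ranged from 4.26 to 6.29 (median 4.61) untreated and from 3.91 to 5.56 (median 4.45) treated, near background in most tumours (-0.22 ± 0.23, adjusted p = 0.578).

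In the guadecitabine experiment Slc40a1 gave the largest difference of the 8 genes, though it did not pass. It read 4.03, 3.99, 4.51, 4.64 and 5.09 untreated and 5.13, 6.00, 5.19, 5.85, 4.92 and 7.21 treated. In 5 of 6 treated tumours it was above every control, with replicate 6 the highest. The untreated mean did not lie above background, and 3 of the 5 untreated tumours did, so the size of a difference from this group is uncertain. The difference was 1.26 ± 0.38 (unadjusted p = 0.0067 by limma, adjusted p = 0.683), and 0.96 without treated replicate 6 (adjusted p = 0.474). With all 6 groups in 1 fit it was called (adjusted p = 0.0218). The second Slc40a1 probe set gave 0.33 ± 0.18 (adjusted p = 0.739). Cp read 6.87, 6.45, 7.34, 6.42 and 6.88 untreated and 6.47, 6.84, 8.08, 8.19, 7.09 and 9.99 treated. Replicate 6 was again highest, the groups overlapped, and 0.99 ± 0.54 did not pass (adjusted p = 0.739). Without that tumour the Cp difference was 0.54. The same tumour had the lowest Tfrc of its group and the lowest mean of 7 erythroid markers, 4.24 against 5.06 to 5.60 in the other 5 treated and 5.05 to 5.94 in the untreated tumours. Its mean of the 12 macrophage markers, 5.21, lay within the treated range of 4.63 to 6.13. The median difference of the 12 under guadecitabine was -0.36. That 0 of the 12 passed the test says little, since 0 of all 45141 probe sets did. Their part in the result was not tested.

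The effects of OTX015 and guadecitabine in tumours differed for the brightest probe set of both export genes, in calls that many changes of the fit removed. The contrast of OTX015 minus guadecitabine was -1.52 ± 0.45 for Slc40a1 (adjusted p = 0.0472) and -1.72 ± 0.49 for Cp (adjusted p = 0.0374). Both were lower under OTX015, 2 of 13 probe sets against 4.59% of all (2.4% higher and 2.19% lower). The second probe sets gave -0.48 ± 0.21 for Slc40a1 (adjusted p = 0.205) and -0.80 ± 0.31 for Cp (adjusted p = 0.142), neither called. The call of Slc40a1 was lost in 20 of 32 fits that left out 1 array (adjusted p = 0.0506 to 0.104). These arrays were untreated replicates 2, 5, 7, 8, 9, 10 and 11 and treated replicates 1, 2, 3, 5, 8 and 10 of the OTX015 experiment, and untreated replicates 1, 2, 3 and 4 and treated replicates 2, 4 and 6 of the guadecitabine experiment. The call of Cp was lost in 7 of 32 such fits (0.0508 to 0.0793), without OTX015 replicates 8 or 9, guadecitabine replicates 3 or 4, or untreated replicates 1, 2 or 4 of the guadecitabine experiment. Both were also lost without dim probe sets (0.0728 for Slc40a1, 0.0580 for Cp) and with the mean of a gene's probe sets (0.0538 and 0.0540). That of Slc40a1 was lost as well with 1 probe set per gene (0.0527), a variance trend (0.0507), array weights (0.0853) and without the 3 arrays of lowest spread (0.0750). Of the other 6 genes Trf had the largest contrast and did not pass (-0.61 ± 0.19, adjusted p = 0.0631), though it did on the deposited values (0.0046). The drugs were given by different routes, and the untreated tumours also differed. Cp was 0.80 ± 0.21 higher in those of the guadecitabine experiment (adjusted p = 0.0096). There 8 of 12 macrophage and 4 of 5 neutrophil markers were lower, against 21.9% of all named genes lower and 10.3% higher.

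By group mean of the deposited values Slc40a1 was highest in OTX015 (6.70 ± 0.08, SD, n = 4) and untreated cells (6.60 ± 0.22, n = 4). Next came guadecitabine tumours (5.72 ± 0.85, n = 6) and untreated tumours of the OTX015 experiment (4.95 ± 0.56, n = 11), then OTX015 tumours (4.50 ± 0.55, n = 10) and the other untreated tumours (4.46 ± 0.46, n = 5). Its only gap beyond the larger SD lay between guadecitabine tumours and untreated cells. Against the shared untreated cells, Slc40a1 was lower by -1.65 ± 0.26 in untreated tumours of the OTX015 experiment (adjusted p = 1.5e-04) and by -2.15 ± 0.22 in those of the guadecitabine experiment (adjusted p = 4.7e-05), whose mean did not lie above background. The second Slc40a1 probe set, with a mean above background in each of these groups, gave smaller differences. They were -0.22 ± 0.15 (adjusted p = 0.223, not called) and -0.72 ± 0.16 (adjusted p = 0.0050) in the same order. Cp had its highest means in untreated cells (7.97 ± 0.15, n = 4) and guadecitabine tumours (7.78 ± 1.28, n = 6), which were within the larger SD. It was lower in untreated tumours of the guadecitabine (6.79 ± 0.38, n = 5) and OTX015 experiments (5.99 ± 0.45, n = 11), in OTX015 cells (5.78 ± 0.26, n = 4) and in OTX015 tumours (5.07 ± 0.28, n = 10). Against untreated cells the difference of Cp was -1.97 ± 0.21 in untreated tumours of the OTX015 experiment (adjusted p = 3.0e-06) and -1.18 ± 0.18 in those of the guadecitabine experiment (adjusted p = 5.1e-04). The dim second Cp probe set gave -0.06 ± 0.06 (adjusted p = 0.431) and 0.24 ± 0.09 (adjusted p = 0.0598), neither called.

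Aco1 encodes the cytosolic aconitase that, without its iron-sulphur cluster, acts as an iron regulatory protein. It read 6.23, 6.33, 5.88 and 6.12 in untreated and 6.52, 6.58, 6.52 and 6.52 in OTX015 cells. All 4 treated samples lay above every control, by 0.40 ± 0.09 (1.32-fold, adjusted p = 0.0061). With all 6 groups in 1 fit the call was lost (adjusted p = 0.122), and the second, dim probe set gave 0.09 ± 0.08 (adjusted p = 0.482). In tumours after quantile normalization Aco1 ranged from 5.85 to 6.26 (median 6.10) untreated and from 6.02 to 6.30 (median 6.17) with OTX015. The groups overlapped and 0.11 ± 0.05 did not pass (adjusted p = 0.167), with a sign that turned to -0.12 on the deposited values. The effect was lower in tumours than in cells by -0.32 ± 0.10 (adjusted p = 0.0153), a call lost without untreated cell replicate 3 (0.0575), with median centring (0.370), with the mean of its probe sets (0.191), with a variance trend (0.0561) and with all 6 groups in 1 fit (0.107). Under guadecitabine Aco1 read 6.09, 5.70, 5.88, 6.06 and 6.05 untreated and 5.80, 6.41, 5.69, 6.64, 6.26 and 5.56 treated, with treated tumours on both sides of the controls (0.10 ± 0.19, adjusted p = 0.912). Its highest group mean of the deposited values was that of OTX015 cells (6.54 ± 0.03, SD, n = 4). The other 5, from 5.95 ± 0.17 (n = 5) to 6.17 ± 0.27 (n = 11), were within their SDs of each neighbour.

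Over all 13 probe sets, 8 differed in the effect of OTX015 between tumours and cells, 2 higher and 6 lower in tumours, against 25.9% of all probe sets (13.4% higher and 12.6% lower). On the deposited values 8 were called as well, but 1 higher and 7 lower, against 18656 of all 45141 probe sets. The share of higher calls over all probe sets moved from 51.5% to 17.5%. For OTX015 in tumours that share was 51.6% after quantile normalization, 2.15% as deposited and 68.2% with median centring. For OTX015 against guadecitabine it was 52.3% after quantile normalization and 4.01% as deposited.

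Untreated tumours of the OTX015 experiment differed from untreated cells in 6 of 13 probe sets, 4 higher and 2 lower, against 43.1% of all (20.7% higher and 22.4% lower). Those of the guadecitabine experiment differed in 6, 3 higher and 3 lower, against 38.2% (15.6% higher and 22.5% lower). Both counts are close to the background. With quantile normalization the first became 8, 6 higher and 2 lower, against 16385 of all 45141 probe sets. Trf (0.33, adjusted p = 0.0052) and Aco1 (0.38, adjusted p = 0.0016) were then called, while with median centring these 2 genes turned below 0. The 3 Tfrc probe sets were higher in both. Fth1 was the other one higher in the first, by 0.17 ± 0.06 (adjusted p = 0.0241), a call lost without untreated cell replicate 1, 3 or 4 (0.0546 to 0.0719), with median centring (0.276) and without dim probe sets (0.0592). With median centring, the share of higher calls over all probe sets moved from 47.9% to 30.7% in the first and from 40.9% to 26.5% in the second. Between the untreated tumours of the experiments 4 of 13 probe sets were called, 2 higher and 2 lower, against 34.2% of all (14.5% higher and 19.7% lower). Both Cp probe sets were higher in the guadecitabine experiment, and the dimmest of Tfrc (-0.85 ± 0.22) and the second of Slc40a1 (-0.50 ± 0.13) were lower.

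Of 58 other genes of iron and heme handling, 54 were measured. In cells OTX015 raised 11 and lowered 12, with a median of 0.03. Over all 17097 named genes, each by its brightest probe set, 37.2% were called there (16.1% higher and 21% lower), so the count of the 54 is close to the background. Hfe, which binds the transferrin receptor, fell by 2.12 on the log2 scale (adjusted p = 8.0e-08), with means of 7.39 untreated and 5.27 treated. Epas1, the hypoxia-inducible factor whose mRNA carries an iron-responsive element, rose by 2.90 ± 0.14 (adjusted p = 1.1e-07). Fech, which inserts iron into protoporphyrin, rose by 0.92 ± 0.07, and Flvcr1, a heme exporter, by 1.01 ± 0.09. Isca1, an iron-sulphur cluster assembly protein, rose by 0.77 ± 0.06. Slc39a14, a carrier of iron that is not bound to transferrin, fell by 0.88 on the log2 scale.

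By role, 5 of 16 reduction and uptake genes fell and 1 rose in cells, while 5 of 12 heme genes rose and 3 fell. Of 9 mitochondrial genes 3 rose and 2 fell, and 0 of 4 storage genes were called. With so few genes to a role, these counts are a description beside the shares over all genes. In tumours OTX015 raised 5 of the 54 and lowered 2, against 16.8% of all genes (8.93% higher and 7.83% lower). Slc39a14 rose there by 0.33 ± 0.09 (adjusted p = 0.0110), Glrx5, a mitochondrial glutaredoxin of iron-sulphur cluster assembly, by 0.21 ± 0.05 and Blvra, biliverdin reductase, by 0.17 ± 0.04. Tmprss6 (0.22) and Steap4 (0.23) were called below background. Flvcr1 fell by 0.41 on the log2 scale (adjusted p = 0.0346). These calls depend on the scaling: as deposited 0 of the 54 were higher and 28 lower, with Glrx5 (-0.02), Blvra (-0.06), Tmprss6 (-0.03) and Steap4 (-0.03) turned in sign, and median centring left 3 higher and 0 lower. Guadecitabine left 0 of the 54 called, and the smallest p was that of Alas2, the erythroid heme enzyme (-1.17 ± 0.60, adjusted p = 0.732).

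The effect of OTX015 differed between tumours and cells for 19 of the 54, 10 higher and 9 lower, against 31.6% of all genes (17.5% higher and 14.1% lower), which is close to the background. Hfe (1.76 ± 0.13, adjusted p = 1.1e-11), Slc39a14 (1.16 ± 0.15) and Blvra (0.78 ± 0.10) were higher in tumours. Epas1 (-3.23 ± 0.27, adjusted p = 2.4e-10), Flvcr1 (-1.47 ± 0.23) and Hmox2, a heme oxygenase (-0.54 ± 0.08), were lower. These 6 kept their sign and call on the deposited values and with median centring, while the counts became 5 higher and 15 lower as deposited and 7 and 8 with median centring. After quantile normalization Hfe was the only one of the 54 whose effect differed between OTX015 and guadecitabine in tumours (-0.61 ± 0.17, adjusted p = 0.0361); as deposited 12 were lower and with median centring 0 were called (0.124 for Hfe).

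**Figure D4:**
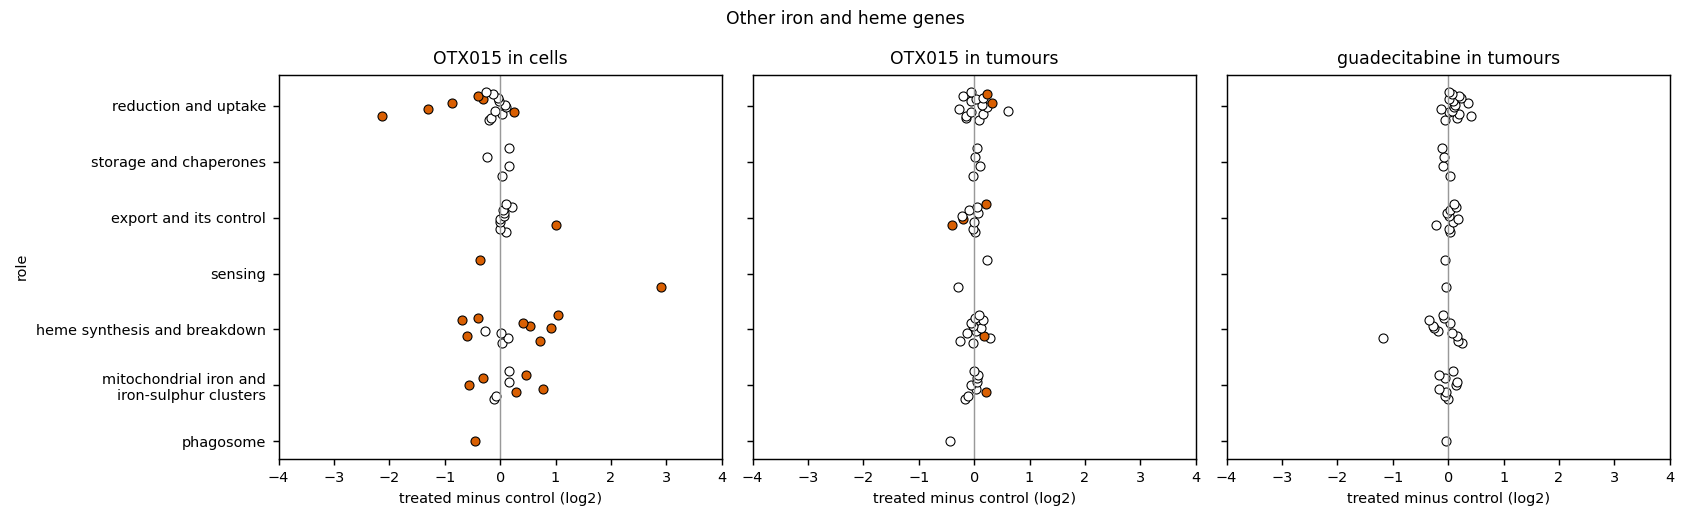
Difference between treated and untreated samples (log2) for 54 other iron and heme genes by role in the 3 drug comparisons, 1 point per gene; filled points passed an adjusted p of 0.05. In cells 11 genes were called higher and 12 lower, in OTX015 tumours 5 and 2 after quantile normalization (0 and 28 as deposited), and 0 under guadecitabine.

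The genes that varied most like each member were taken from 9123 genes above background, by Pearson correlation over the 40 arrays after removal of the 6 group means. It used the deposited values, and arrays of a group differed in spread, from 1.80 to 2.03 (SD) in untreated tumours of the OTX015 experiment. In these tumours the SD of Aco1 fell from 0.27 to 0.14 on quantile normalization. The correlations are a description, since the arrays of a group share their experiment and processing. How far array-wide scaling enters them was not tested. Aco1 was most like Lclat1 (0.925), Gnptab (0.916) and Minpp1 (0.915), and Tfrc most like Txndc15 (0.873), Hspa13 (0.865) and Elovl5 (0.862). Steap3 was most like Ube4a (0.871), and Trf most like Sptlc1 (0.767). Cp was most like L1cam (0.758) and C4b (0.742), and Slc40a1 most like Myd88 (0.664) and Dab2 (0.644). Fth1 was most like Eif3f (0.728), Hmox1 (0.681) and Srxn1 (0.641), and Ftl1 most like Irf9 (0.633). No member was among the 3 genes most like another.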

How the data were processed

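RNA of 40 samples was measured on Affymetrix 3′ expression arrays, 1 per sample, from 500 ng of total RNA per the labels' protocols. The deposited values are log2 expression values; per the submitters' processing notes the authors used RMA with Affymetrix's Transcriptome Analysis Console, of unstated version. RMA corrects background, equalises the distributions of arrays run as 1 batch and combines the probes of a set; the sources used here do not give those batches. Precision is limited by the number of arrays.

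Gene names came from GEO's platform annotation, brought up to date through gene numbers and RefSeq (GRCm38) symbols. Of the probe sets 28898 named 1 gene, 551 several and 15692 were unnamed here. Background was the 95th percentile of the means of 83 receptor probe sets. Promoter windows come from RefSeq, GRCm38.p6.

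Each comparison was fitted on its own arrays with limma 3.58.1 (lmFit, then eBayes, at default settings; R 4.3.3), two-sided, for all 45141 probe sets with Benjamini-Hochberg adjustment; an adjusted p under 0.05 was called. Deposited values were used for cells, guadecitabine and untreated groups. Quantile normalization of the fitted arrays came first for OTX015 in tumours and for both contrasts of effects. The script was tested on simulated data. Other iron genes were named by smallest adjusted p, up to 6 per comparison. The members, lists, tests and naming rule were chosen with earlier results of these data known.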

Additional observations from a re-analysis of the deposited data

Results flagged for a closer look

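Within groups of 4 to 10 samples, 65 sets of values were searched for a sample far from its group, and 3 were found; chance alone gives about 1 in 20. Steap3 read 6.29 in guadecitabine tumour replicate 4, against 4.76 to 5.15 in the other 5. The dimmest Tfrc probe set read 3.09 in untreated cell replicate 1, against 3.40 to 3.44 in the other 3, all below background. Aco1 read 6.58 in OTX015 cell replicate 2, against 6.52 in each of the other 3, a small gap in a group of small spread.

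The effect of OTX015 in tumours minus that in cells passed the test for 6 of the 8 genes by limma. Over all 17097 named genes 31.6% passed there (17.5% higher and 14.1% lower). This difference was -3.43 for Tfrc (adjusted p = 3.5e-15), -0.68 for Ftl1 (1.2e-06), 1.39 for Cp (3.0e-04), -0.36 for Fth1 (0.0012), -0.32 for Aco1 (0.0153) and 0.47 for Trf (0.0258). The effect of OTX015 minus that of guadecitabine in tumours passed for Cp (-1.72, adjusted p = 0.0374) and Slc40a1 (-1.52, adjusted p = 0.0472), against 4.16% of all named genes.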

How the results depend on the processing

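Over the 8 genes, 8 comparisons and all alternatives, 1744 values were recomputed: 1611 kept their direction and side of the threshold, 62 lost a call, 28 gained one and 43 changed sign. In cells 135 of 136 values were unchanged in this sense, Aco1 in the fit of all 6 groups being the exception.

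The number of probe sets called for OTX015 in tumours moved from 3 to 6 on the deposited values, 5 with median centring, 1 without dim probe sets and 0 with all 6 groups in 1 fit. Of all 45141 probe sets 7529 were called in the main fit, 26835 as deposited, 9759 with median centring and 7243 with all 6 groups. Without dim probe sets 1440 of 17269 were called. The fit of all 6 groups gave 1 for guadecitabine, against 1281 of all. For OTX015 in tumours minus cells the mean of a gene's probe sets gave 5 of 8 genes, against 5613 of 17097. For OTX015 minus guadecitabine the count of 2 became 5 as deposited, 0 without dim probe sets or with averaged probe sets, and 1 with 1 probe set per gene, a variance trend, array weights or without the 3 arrays of lowest spread, an alternative chosen after seeing the data; leaving out 1 array gave 0 to 3. Of all 45141 probe sets that contrast had 2073 called in the main fit and 13699 as deposited. It had 2021 with a variance trend, 3553 with array weights and 2426 without the 3 arrays of lowest spread. It had 276 of 17641 without dim probe sets, and of 17097 genes 634 with averaged probe sets and 606 with 1 each. For untreated tumours of the guadecitabine minus the OTX015 experiment 1 probe set per gene gave 1 of 8 genes, against 5172 of 17097.

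With the replicate number as a block the count was 1 for OTX015 minus guadecitabine, 2 between the untreated tumours of both experiments and 9, 2 and 0 for the 3 drug comparisons; Fth1 turned to 0.0021 and 0.027 in the first pair. Of all 45141 probe sets the block fits called 1208, 8474, 12710, 6415 and 0, in the order of these counts. The 2 called between the untreated tumours were lower, and Cp was not called there (0.68, adjusted p = 0.102). Nor were Slc40a1 for OTX015 minus guadecitabine (-1.13, adjusted p = 0.121), Steap3 for OTX015 in tumours (0.18, adjusted p = 0.065) or Fth1 for untreated tumours of the OTX015 experiment minus cells (0.127, adjusted p = 0.238). Same-numbered samples of treated and untreated groups deviated together (correlation over 0.1) in 2 of 4, 5 of 10 and 0 of 5 pairs of the cell, OTX015 tumour and guadecitabine comparisons, so the numbers were not taken as pairs.

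Signs turned on the deposited values for OTX015 in tumours (Steap3 -0.058, Fth1 -0.026, Ftl1 -0.047, Aco1 -0.116) and for tumours minus cells (Steap3 -0.20). For OTX015 minus guadecitabine they turned with median centring (Steap3 0.0030, Fth1 0.165, Aco1 0.023), the mean of probe sets (Aco1 0.0137) and array weights (Fth1 0.030). For untreated tumours of the OTX015 experiment minus cells they turned with median centring (Trf -0.030, Aco1 -0.067) and averaged probe sets (Aco1 -0.0136), and for those of the guadecitabine experiment with quantile normalization (Aco1 0.043). Of these values in the main fits only Steap3 for OTX015 in tumours was called; the cause was not tested.

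Leaving out 1 array turned signs in ranges around 0: for guadecitabine Steap3 (-0.035 to 0.287) and Aco1 (-0.011 to 0.204); for OTX015 minus guadecitabine Steap3 (-0.107 to 0.187), Fth1 (-0.062 to 0.010) and Aco1 (-0.118 to 0.058); for untreated tumours of the OTX015 experiment minus cells Trf (-0.011 to 0.103) and Aco1 (-0.057 to 0.091), and of the guadecitabine experiment Trf (-0.047 to 0.214); between the untreated tumours Trf (-0.112 to 0.149), Fth1 (-0.048 to 0.016) and Ftl1 (-0.0092 to 0.031). Signal over background limits Steap3, Slc40a1 in tumours and the second probe sets of Cp and Aco1.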

Other observations

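Other iron genes also differed between untreated tumours and untreated cells, side by side for the 2 experiments, which share the cells. Steap2, a metalloreductase, was lower by -1.99 ± 0.15 in tumours of the OTX015 experiment (adjusted p = 6.8e-08) and by -2.40 ± 0.11 in those of the guadecitabine experiment (adjusted p = 6.5e-07). Hfe was lower by -0.66 ± 0.07 and -0.99 ± 0.11 in the same order. Alas2, the erythroid enzyme of heme synthesis, read 3.48 ± 0.12 (SD, n = 4) in cells, below background, and 8.03 ± 0.99 (n = 11) in untreated tumours of the OTX015 experiment (4.55 ± 0.45, SE, adjusted p = 1.3e-06). Alas2 is itself 1 of the 7 measured erythroid markers, 4 of which were higher in these tumours. Of 12 heme genes in that comparison, 4 were higher and 7 lower, against 49.2% of all named genes (20.2% higher and 28.9% lower).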
